A study of Danio rerio with 6 samples.

Results

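The genes described here are the carbonic anhydrases of the adult zebrafish retina. They were taken by name from a table of 14781 genes, as ca7, cahz, ca2, ca4a, ca6, ca8, ca10a and ca14. Of these 8 names, 7 matched a row, and ca6 was not analysed here. The members were chosen by family name with the levels and mutant changes of the same table already known. Their mutant and wild-type values are therefore a description, and the adjusted p values printed for them record the fit over all genes and are not independent evidence.

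The data were RNA-seq profiles of retinas from 3 wild-type fish and 3 samd7-/- fish, homozygous for the stl888 allele. All were males of 3 months from an intercross of heterozygotes, and the 2 retinas of each fish were pooled into 1 library, so that n = 3 fish per genotype. The allele is carried in every cell of the fish, and whole retinas were profiled, so a value is a sum over all retinal cell types. The study asked how loss of Samd7, a SAM-domain protein of photoreceptors, affects photoreceptor identity.

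Carbonic anhydrases are zinc enzymes that interconvert carbon dioxide and water with bicarbonate and a proton. In the vertebrate retina they buffer acid from the high metabolism of photoreceptors and, in Müller glia, turn carbon dioxide into bicarbonate that transporters carry away. Isoforms differ by place, from the cytosol to the outer cell surface. A pair of related proteins, CA8 and CA10 of mammals, lack zinc-binding residues of the active site and have no enzyme activity.

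The libraries held between 20186266 and 29117026 reads in genes, and 12691 to 12876 genes had a read in each. Values are normalised read counts, which are reads divided by a size factor per library, and are given as mean ± SD. A log2 change is the mutant mean less the wild-type mean of log2(value + 1). Each adjusted p comes from limma, corrected by Benjamini-Hochberg for 11335 tested genes, with a threshold of 0.05. Markers of rods, cones, Müller glia and inner retinal neurons were present in every library. Markers of the pigment epithelium varied widely within each genotype, with a summed level of 17172 to 61198 in wild type and 13443 to 80646 in the mutants. The samd7 transcript averaged 4646 ± 501 in wild type against 3745 ± 1328 in samd7-/- fish, with overlap (log2 change -0.37, SE 0.26, adjusted p = 0.466), so its level did not check the genotype labels. No transcript lengths were used, so levels are compared between libraries. Shares, sums and ratios over genes are of read counts and do not rank genes by their number of transcripts.

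Of the 7 carbonic anhydrases, ca7 was about 3-fold lower in the mutant retinas, while the values of cahz, ca2, ca4a and ca10a overlapped between the genotypes. The values of ca8 and ca14 were higher in every mutant than in any wild-type fish but did not pass the threshold. All 7 passed the filter on low values. In all, 1 member was called lower and none higher by limma, where 2.61% of all genes tested were called in either direction, 1.78% lower and 0.829% higher. At an unadjusted p under 0.05 there were 3 such members, ca7, ca8 and ca14, beside 21.0% of all genes tested (2377 of 11335). These 3 are also the members without overlap of the genotypes, beside 28.1% of all genes tested. The median log2 change was 0.0023 over the 7 members and 0.013 over all genes tested.

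**Figure D1:**
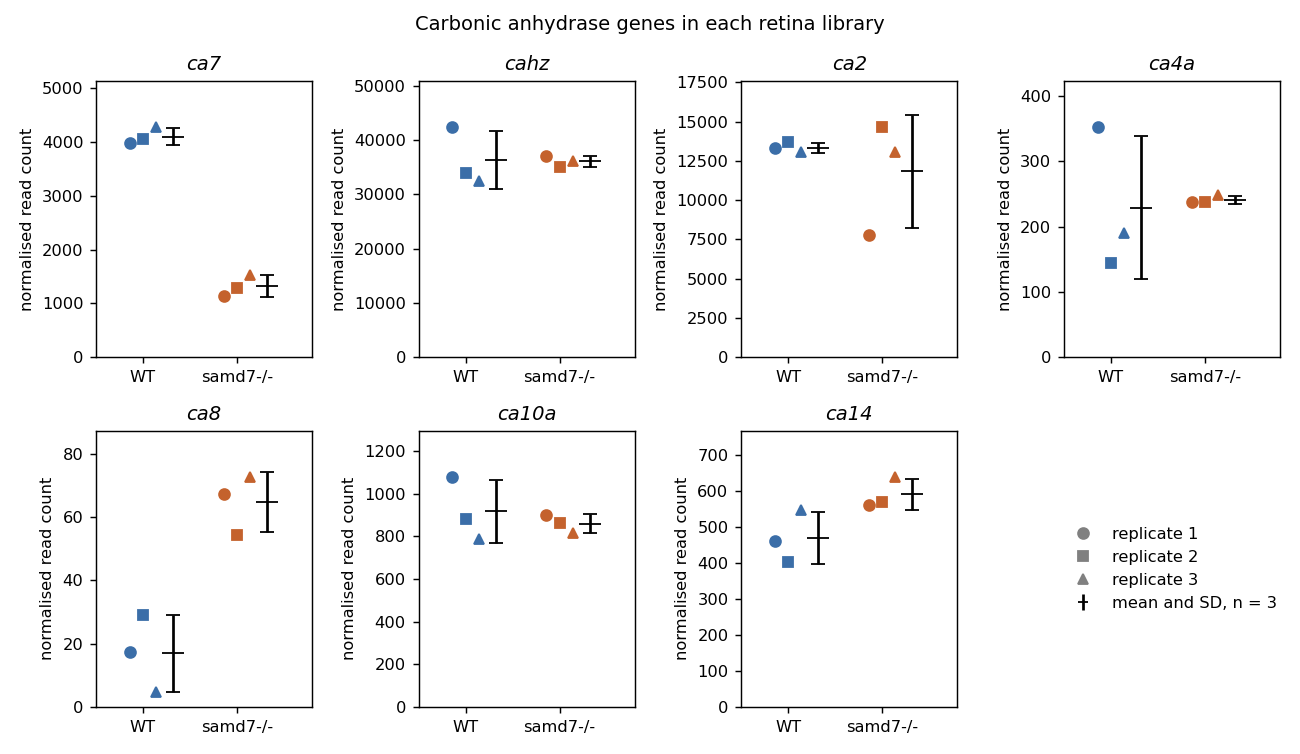
Normalised read counts (y axes, starting at 0, with a scale of their own in each panel) of the 7 carbonic anhydrase genes in 3 wild-type and 3 samd7-/- libraries; points are libraries and black bars the mean and SD. The 3 mutant values of ca7 lie between 1135 and 1534, all below the wild-type range of 3975 to 4274, whereas those of cahz and ca10a lie inside the wild-type range.

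The cytosolic enzymes come first. ca7 encodes a cytosolic carbonic anhydrase that in mammals is found in neurons, where it supplies the bicarbonate that leaves through GABA-A receptors. Wild-type fish 1, 2 and 3 held 3975, 4044 and 4274, and the mutants 1135, 1292 and 1534, the order of replicates used throughout. The 2 ranges were far apart, and the wild-type fish were close to one another, with a coefficient of variation of 3.82% against 15.2% in the mutants. The mean was 4098 ± 156 in wild type and 1321 ± 201 in samd7-/- fish, or 0.322 times wild type (log2 change -1.64, SE 0.12, 95% confidence interval -1.94 to -1.35, adjusted p = 0.00362). These values rest on 3491 to 4542 reads in each wild-type library and 1216 to 1813 in each mutant library. The call held in all 16 alternatives of scaling, filter, pseudocount, test and samples, with adjusted p between 2.87e-22 and 0.0412. The authors' deposited table gives ca7 a log2 change of -1.63 with an adjusted p of 2.81e-22. That value and the DESeq2 alternative here come from the same reads, so they are not separate evidence.

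cahz encodes a cytosolic carbonic anhydrase of zebrafish that is used as a marker of red blood cells and is also known from the retina. It was at 42411, 33946 and 32539 in wild type and at 37053, 35089 and 36203 in the mutants. All mutants lay within the wild-type range, in which replicate 1 was the highest. The log2 change was 0.0023 (SE 0.13, adjusted p = 0.996), and its 95% confidence interval covered a mutant level of 0.802 to 1.25 times that of wild type.

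Since cahz is known from red blood cells as well as the retina, markers of erythrocytes and of Müller glia were set beside it. Of 16 erythrocyte genes with a row, 12 were tested, none was called, and the globin gene ba1 was at 0. Their summed level was 3903 to 4312 in wild type and 2481 to 3899 in samd7-/- fish, of which hbp1, a transcription factor and no globin, held 58.2 to 78.7%. Without hbp1 the sums were 920 to 1630 and 667 to 1536. Of these, blvrb alone held 229, 504 and 402 in wild type and 437, 459 and 519 in the mutants. Of the 12 tested erythrocyte genes, 9 had a negative and 3 a positive log2 change (median -0.90). The globin gene ba1l was at 235, 29.0 and 164 in wild type and at 1.87, 26.2 and 131 in the mutants. The alpha globin gene hbaa1 was at 368, 129 and 209 in wild type and at 47.6, 62.8 and 289 in the mutants. Over the same libraries cahz was between 32539 and 42411. The part of erythrocytes in the cahz values was not tested. Of 16 Müller glia genes 15 were tested, 2 were called higher and none lower, beside 0.829% higher and 1.78% lower of all genes tested. Of these 15 genes, 5 were higher in every mutant, beside 13.3% of all genes tested. The log2 change was positive for 12 and negative for 3 (median 0.15). The sum of the Müller glia genes was 269686 to 276560 in wild type and 301134 to 332079 in the mutants. The glial glutamine synthetase glula, which held the most reads of that list, was at 155043 ± 6387 and 176135 ± 17847 (adjusted p = 0.506).

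ca2 encodes the zebrafish relative of carbonic anhydrase II, a fast cytosolic enzyme that marks Müller glia in many vertebrates. It was at 13285, 13677 and 13062 in wild type and at 7791, 14650 and 13069 in samd7-/- fish. The wild-type fish agreed within a coefficient of variation of 2.33%, whereas the mutants spread by 30.3%, since mutant replicate 1 alone was low. The log2 change was -0.22 (SE 0.23, 95% confidence interval -0.78 to 0.33, adjusted p = 0.633). Without mutant replicate 1 it was 0.053 (adjusted p = 0.873), so the sign rests on that library. In the same library the summed rod markers were also lowest, at 558332, against 2076137 and 1607489 in mutant replicates 2 and 3 and 1980996 to 3084042 in wild type. This was not particular to rods. Mutant replicate 1 also held the lowest sums of all libraries for red and green cone (40455), erythrocyte (2481) and horizontal cell (20219) markers. Its cell cycle (11167) and ganglion cell (59533) sums were the highest of all libraries. The summed Müller glia markers of mutant replicate 1 were at 301134, above all wild-type libraries. The part of any of these in the low ca2 value was not tested.

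The enzymes of the cell surface follow. ca14 encodes a transmembrane carbonic anhydrase whose active site faces outward, known from Müller glia and pigment epithelium of the mouse. It was at 459, 403 and 547 in wild type and at 561, 569 and 639 in the mutants. Each of the mutants exceeded each wild-type fish, narrowly so for wild-type replicate 3 and mutant replicate 1. The means were 470 ± 72.3 and 590 ± 42.8 (log2 change 0.34, SE 0.14, 95% confidence interval 0.0021 to 0.67, adjusted p = 0.236). It passed in 1 of 16 alternatives, with library totals as the scaling (adjusted p = 0.0305, range over all alternatives 0.0305 to 0.514). That scaling moved the median of all genes up by 0.35 on the log2 scale. Relative to that median, ca14 stood at 0.32.

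ca4a encodes a relative of the carbonic anhydrase that a glycolipid anchor holds on the outer cell surface. It was at 353, 145 and 191 in wild type and at 237, 239 and 248 in the mutants. The mutants were within 2.45% of one another as a coefficient of variation and the wild-type fish within 47.6%, with wild-type replicate 1 the highest and replicate 2 the lowest of the 6 libraries. The log2 change was 0.17 (SE 0.31, adjusted p = 0.795), with an interval of 0.672 to 1.89 times wild type. Endothelial markers, which belong to a cell type that carries this enzyme in mammals, were also highest in wild-type replicate 1, at a sum of 17111. Replicates 3 and 2 held 8096 and 8545, and the mutants 4361 to 6163. This was not particular to endothelium. Among wild-type libraries, replicate 1 also held the highest sums of bipolar (124302), amacrine (89741), horizontal, ganglion cell, Müller glia and cell cycle markers. It held the lowest wild-type sums of rod, cone and pigment epithelial markers. The erythrocyte sum of replicate 1 was the lowest in wild type with hbp1 (3903, next 3917). Without hbp1 it was the highest, at 1630 against 920 and 1252 in replicates 2 and 3. Of the 10 endothelial markers tested, 6 had a negative and 4 a positive log2 change, with a median of -0.058. The part of these markers in the ca4a values was not tested.

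The relatives without known enzyme activity come last. ca8 encodes a protein that in mice binds the inositol trisphosphate receptor and is best known from Purkinje cells. It was at 17.5, 29.0 and 4.59 in wild type and at 67.2, 54.4 and 72.8 in the mutants. All mutants were higher than all wild-type fish, and wild type varied by 71.6% as a coefficient of variation. These values rest on 20, 25 and 4 reads in wild type and 72, 52 and 86 in the mutants. The exact 95% Poisson interval ran from 1.25 to 11.8 for the value of wild-type replicate 3 and from 40.6 to 71.3 for mutant replicate 2, the lowest mutant. It overlapped that of wild-type replicate 2, the highest wild-type fish, which ran from 18.7 to 42.8. Such intervals cover the counting error of independent reads only. They are too narrow if some reads are PCR copies, which are not independent molecules. The means were 17.0 ± 12.2 and 64.8 ± 9.42, a ratio of 3.81 (log2 change 2.16, SE 0.61, 95% confidence interval 0.71 to 3.62, adjusted p = 0.112). With DESeq2 on whole reads it passed (adjusted p = 0.0104), as it did with library totals as the scaling (0.0364), and it did not in the other 14 alternatives (highest adjusted p 0.321). The authors' deposited table gives ca8 a log2 change of 1.93 with an adjusted p of 0.0101, from the same reads as the DESeq2 alternative and so no separate evidence.

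ca10a encodes a relative of CA10, a secreted protein that in mammals binds neurexins at synapses. It was at 1080, 882 and 790 in wild type and at 903, 863 and 814 in the mutants. Every mutant lay within the wild-type range. The log2 change was -0.082 (SE 0.13, adjusted p = 0.770), with an interval of 0.759 to 1.18 times wild type.

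**Figure D2:**
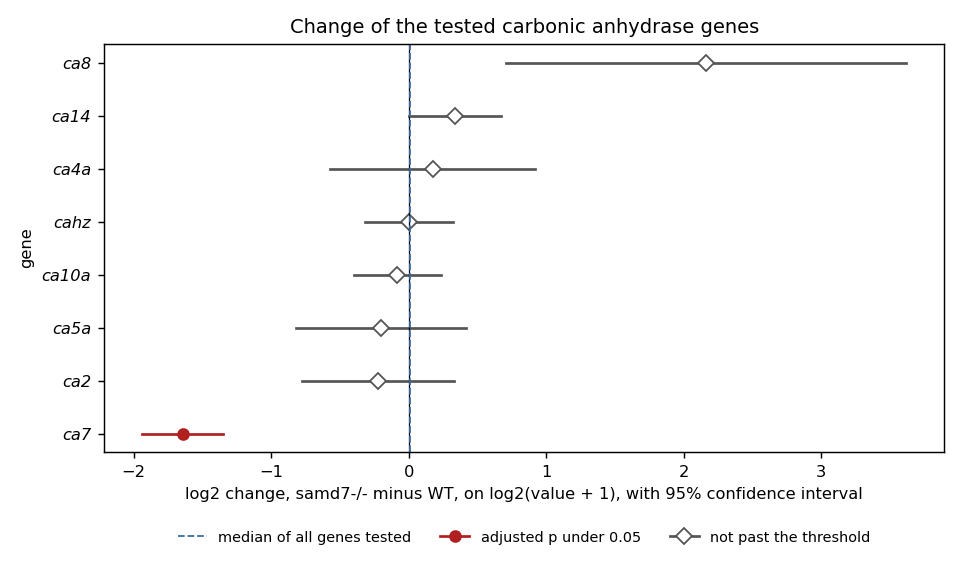
Log2 change, mutant minus wild type (x axis), of the 8 tested carbonic anhydrase genes (y axis), with 95% confidence intervals from limma; the dashed line is the median of all genes tested. The interval of ca7 lies between -1.94 and -1.35, those of ca8 and ca14 lie above 0 without passing the adjusted threshold, and the other 5 cross 0.

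In bulk tissue, fewer cells of a type and less RNA per cell cannot be told apart. The summed markers of red and green cones and the summed markers shared by cone types were lower in the same libraries as ca7. Over all genes tested, 1.78% were called lower and 0.829% higher. Of 9 tested markers shared by cone types 4 were called lower and none higher. The log2 change was negative for 8 and positive for 1 (0.58), which was higher in every mutant. Their summed level was 1216398 to 1609021 in wild type and 522099 to 605088 in samd7-/- fish, and zgc:73359 was at 0. Of that sum pde6h alone averaged 911370 in wild type and 335286 in the mutants. Of 9 red and green cone markers 7 were lower, with a sum of 497895 to 972942 in wild type and 40455 to 74335 in the mutants. Of 8 blue and UV cone markers 5 were higher, with sums of 484026 to 582545 and 1058886 to 1288084. Of 13 rod markers 1 was called lower and 3 were lower in every mutant, beside 14.8% of all genes lower without overlap. The log2 change was negative for 12 of them (median of the 13 -1.06) and positive for nr2e3 (0.71). The rod sums overlapped, at 1980996 to 3084042 and 558332 to 2076137.

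Of 10 horizontal cell markers none was called, and 5 had a negative and 5 a positive log2 change (median -0.038). Their sums were 23456 to 30284 in wild type and 20219 to 23310 in the mutants, narrowly without overlap. Of 12 bipolar and 11 amacrine markers none was called, and their sums overlapped. Of 15 ganglion cell markers 1 was called higher and none lower, and 14 had a positive and 1 a negative log2 change (median 0.71). Among these markers 11 were higher in every mutant, beside 13.3% of all genes tested. Their sums were 39225 to 51954 in wild type and 52076 to 59533 in the mutants, narrowly without overlap. The 12 cell cycle markers held 8 higher genes, with sums of 3309 to 4498 and 5775 to 11167. Of 10 endothelial markers none was called, 6 had a negative and 4 a positive log2 change (median -0.058), and 1 was lower in every mutant. Their sum was lower in every mutant, at 8096 to 17111 in wild type against 4361 to 6163, and so reflects the genes with the most reads. Microglial (9 tested) and pigment epithelial (12) markers held no call, and their sums overlapped. The part of any of these in the ca7 value was not tested.

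The genes whose levels over the 6 libraries were most like those of ca7 were inaa, zar1 and gabra6a. Likeness was the root mean square difference of log2 values, each centred on its own mean, and it was between 0.182 and 0.185 for the 3. inaa, an alpha internexin gene for a neuronal intermediate filament, was at 67437, 72746 and 66702 in wild type and at 23139, 25617 and 21834 in the mutants (log2 change -1.55, adjusted p = 0.00362). gabra6a, an alpha subunit gene of GABA-A receptors, was at 11980, 15992 and 14121 in wild type and at 3621, 4137 and 3928 in the mutants (log2 change -1.84, adjusted p = 0.00324). zar1, best known from the oocyte, was low, at 20.1, 17.4 and 23.0 and at 5.60, 7.32 and 9.31, and did not pass (adjusted p = 0.124). Genes picked for likeness to ca7 share its difference between the genotypes by construction.

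**Figure D3:**
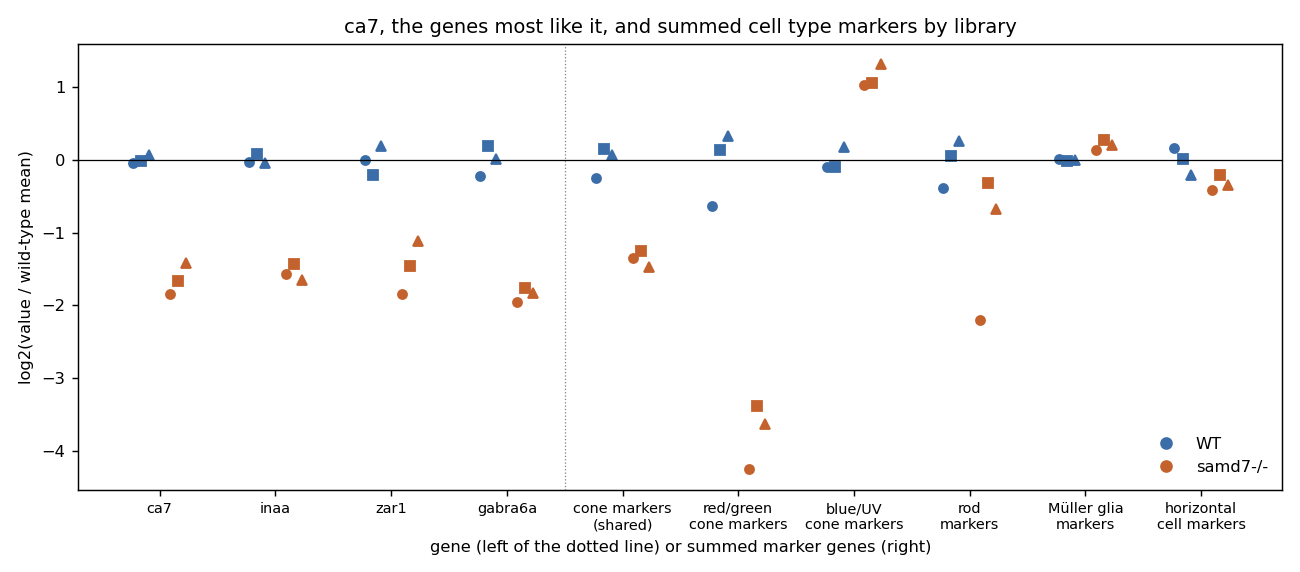
Log2 ratio of each library to the wild-type mean (y axis) for ca7, the 3 genes most like it and some summed cell type markers (x axis). The marker sums shown are those shared by cones and those of red/green cones, blue/UV cones, rods, Müller glia and horizontal cells. The other marker lists, among them endothelium, ganglion cells and cell cycle, are not shown. Blue is wild type and orange samd7-/-, with circles, squares and triangles for replicates 1, 2 and 3. The mutants sit between -1.85 and -1.42 for ca7, between -1.47 and -1.26 for markers shared by cones and between 0.14 and 0.28 for Müller glia markers.

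Ratios within a library, which no scaling of that library can move, set ca7 against the rest of its family. The log2 ratio of ca7 to cahz was -3.14 ± 0.25 in wild type against -4.78 ± 0.23 in samd7-/- fish. That of ca7 to ca2 was -1.70 ± 0.080 and -3.12 ± 0.36, and that of ca7 to ca14 was 3.14 ± 0.18 and 1.15 ± 0.13. In each of the 5 ratios computed, with ca10a and ca4a as well, the genotypes lay apart by 0.87 to 1.70 on the log2 scale. These ratios show unequal change among the members and say nothing of which member moved.

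The family is taken here as the members and further family names that matched a row, without the gene car15 described below. ca7 took 7.42 ± 0.941% of the reads of these genes in wild type and 2.57 ± 0.295% in samd7-/- fish. cahz took 65.0 ± 2.99% and 70.6 ± 5.76%. ca2 took 24.1 ± 2.32% and 22.9 ± 5.93%. These are shares of reads, to which long transcripts add more than short ones. Summed over the family, the level was 55674 ± 5522 in wild type against 51285 ± 2816 in samd7-/- fish, with overlapping ranges. As a share of all reads in genes, the family went the other way, narrowly without overlap. It ran from 0.197 to 0.243% in wild type and from 0.245 to 0.256% in samd7-/- fish. Such a share is a scaling to library totals, which moved the median of all genes up by 0.35 on the log2 scale. The direction of the family sum thus turned with the scaling.

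Of 21 further names of the family 5 matched a row, and of these ca5a alone had the level needed for the test. ca5a encodes a mitochondrial carbonic anhydrase. It was at 371, 314 and 196 in wild type and at 279, 263 and 205 in the mutants, which overlapped (log2 change -0.20, SE 0.26, adjusted p = 0.706; interval 0.567 to 1.33 times wild type). ca4b held 53 reads over all 6 libraries. For ca15b 1 read was counted, in mutant replicate 1, and ca15a and ca15c were at 0 in every library. limma did not call ca5a, also not at an unadjusted p under 0.05, and edgeR and DESeq2 called none either.

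Bicarbonate transporters move the product of these enzymes across membranes, and sodium/proton exchangers and lactate transporters move protons. Of 46 names 30 matched a row and 21 were tested. Of these, 1 was called lower and none higher, beside 1.78% lower and 0.829% higher of all genes tested. slc16a3, a proton-coupled transporter of lactate, was at 5368, 3574 and 3674 in wild type and at 1248, 2132 and 1641 in the mutants. All mutants lay below all wild-type fish, 2.51-fold lower in the mean (log2 change -1.34, SE 0.24, adjusted p = 0.0442). Its call was lost in 8 of 16 alternatives, among them edgeR (adjusted p = 0.0504), the replicate block (0.0913) and 5 of the 6 fits that left out a library, all but that without mutant replicate 2 (0.0543 to 0.184 in the 5). Its adjusted p ran from 3.48e-05 to 0.184 over the 16. The zebrafish copy slc16a3a, under its older symbol si:ch211-234h8.7, was at 216 ± 76.7 and 192 ± 25.7, and its genotypes overlapped (log2 change -0.12, limma adjusted p = 0.835). This copy was chosen after its values were seen.

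Over the 21 transporters the median log2 change was -0.19, with 13 negative, beside 0.013 and 48.4% negative over all genes. In 10 the genotypes did not overlap, 8 lower and 2 higher, where 14.8% of all genes lay lower and 13.3% higher without overlap. Of the 2 higher, slc4a2a was below the filter value of 10 in all wild-type fish and passed the filter through the mutants alone. Its lack of overlap was thus not independent of the filter. The sodium bicarbonate cotransporter slc4a4a, known from Müller glia, was at 2850, 3319 and 4136 in wild type and at 2484, 4189 and 3280 in the mutants, which overlapped (log2 change -0.066, adjusted p = 0.894; chosen after its values were seen). Basigin, bsg, the chaperone of lactate transporters, was at 8392 ± 389 and 6953 ± 237 (log2 change -0.27, adjusted p = 0.163; chosen after its values were seen). The lactate transporter of the pigment epithelium, slc16a8, was at 1820 ± 79.1 and 2018 ± 61.6 (log2 change 0.15, adjusted p = 0.357; likewise).

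**Figure D4:**
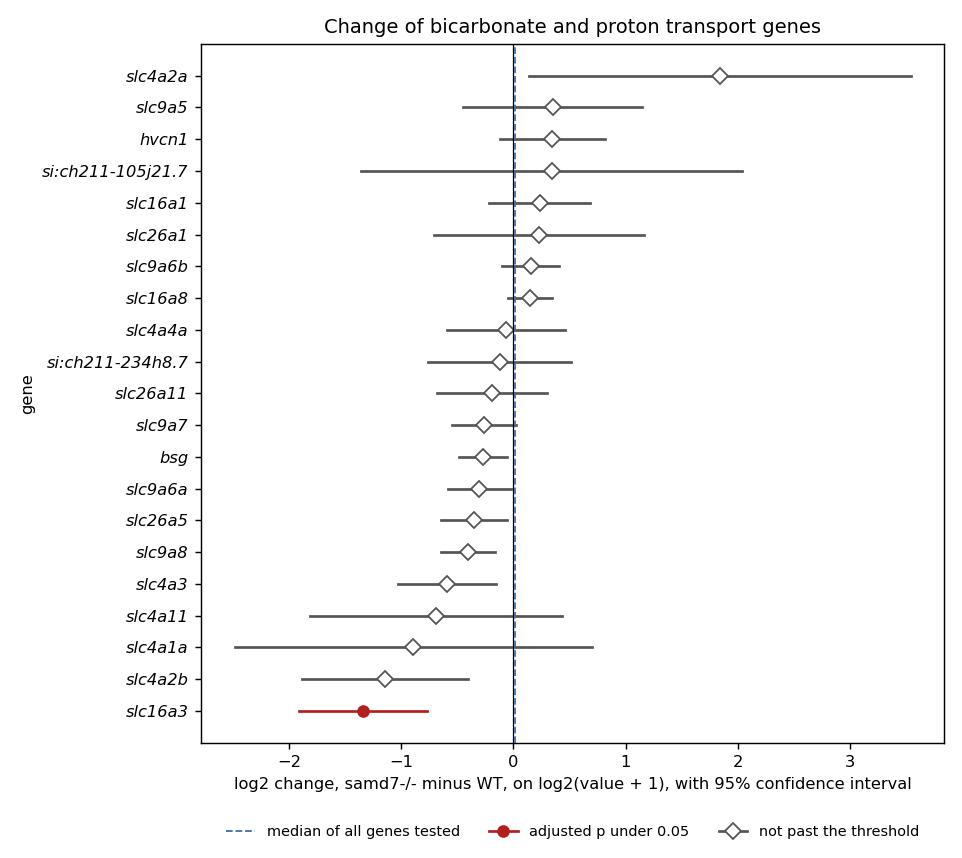
Log2 change, mutant minus wild type (x axis), of 21 tested bicarbonate and proton transport genes (y axis), with 95% confidence intervals from limma and the median of all genes tested as a dashed line. Only slc16a3, at -1.34, passed the adjusted threshold.

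Binding partners known from mammals were measured as well. Of the inositol trisphosphate receptors itpr3 was measured, with 13 reads in all, too few to be tested. All 6 neurexin genes were tested and none was called by limma, with 1, nrxn1b, at an unadjusted p under 0.05, and none by edgeR in the 4 named here. With library totals as the scaling, which moved all genes up, limma called nrxn1a (adjusted p = 0.0361), nrxn2a (0.0363) and nrxn3b (0.0349) higher. The log2 change was 0.29 for nrxn1a (4094 ± 661 to 4972 ± 302, adjusted p = 0.275), -0.70 for nrxn1b (285 ± 68.1 to 174 ± 41.5, adjusted p = 0.169), 0.26 for nrxn2a (adjusted p = 0.292) and 0.15 for nrxn3b (adjusted p = 0.517).

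**Figure D5:**
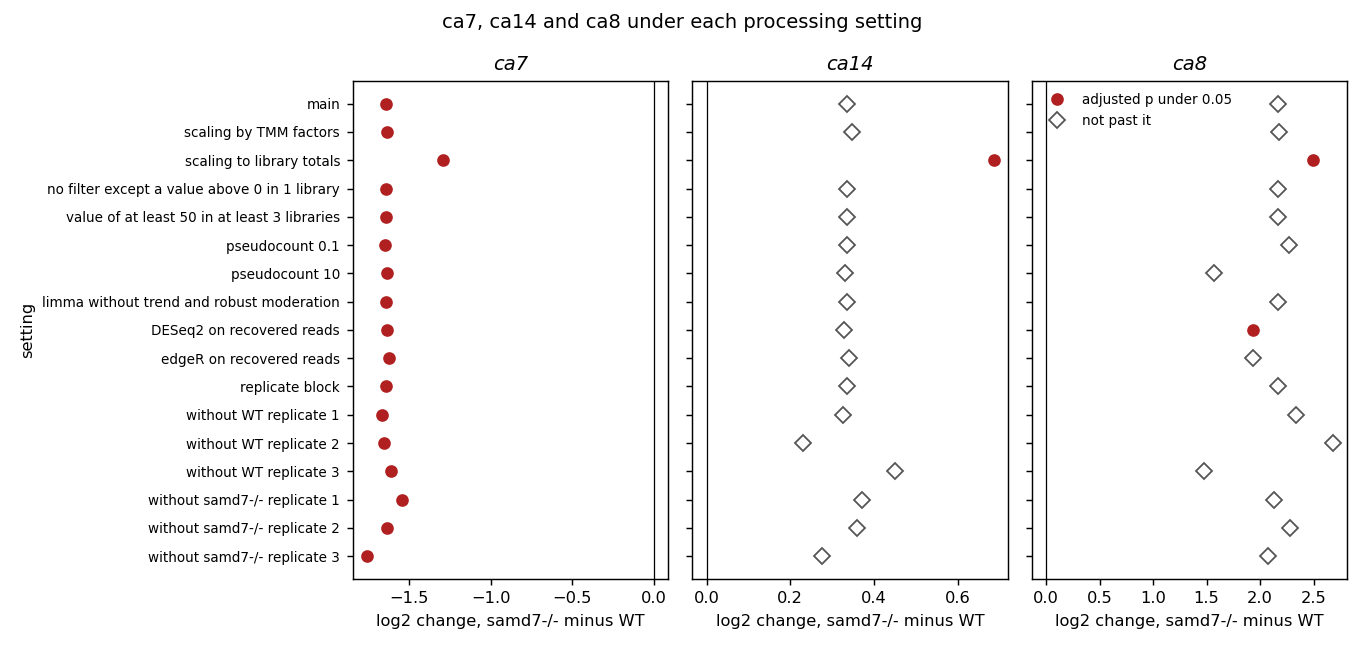
Log2 change, mutant minus wild type (x axes, with a scale of their own in each panel), of ca7, ca14 and ca8 under the setting used here and 16 alternatives (y axis); filled red circles have an adjusted p under 0.05. ca7 stays between -1.76 and -1.29 and past the threshold throughout, while ca14 passes under library totals only and ca8 under library totals and DESeq2.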

How the data were processed

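Per the labels' protocols, cDNA from adult retina RNA was amplified with a SMARTer kit and sequenced as paired-end reads. The submitters' processing notes name STAR 2.7.2b, HTSeq 0.9.1 and, for trimming, Trim Galore 0.6.1, with DESeq2 1.34.0 in R 4.1.3 and the build danRer10. The sources used here give neither the strand setting nor the annotation version, so reads of overlapping or near-identical genes may be divided wrongly. The deposited signal values are read counts that the authors divided by a size factor per library (0.863 to 1.18). Of these values 100% were whole multiples of the value of 1 read within 0.01, so whole reads were recovered. The authors also deposited log2 fold changes and adjusted p-values, per the file headers.

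Here limma 3.58.1 (R 4.3.3), with trend and robust moderation, was run on log2(value + 1) for genes that reached a value of 10 in 3 or more libraries. The samples were grouped by genotype. Members and lists were chosen with earlier results of these data known. The genes named were all members, called genes and those with the smallest p of each related list (at most 8 of the transporters, 4 of the partners and at least 4 of the family, of which 1 was tested), and the 3 genes most like each called member. Outside this rule, the transporters and car15 are marked. Genes named from the cell type marker lists, genes too low to test and samd7, the targeted gene, carry no mark. No rule chose the marker genes named singly. Older symbols were matched through the RefSeq table of GRCz12tu. Alternatives were TMM and library totals, other filters (none or 50) and pseudocounts (0.1 or 10), limma without trend, DESeq2 1.42.0, edgeR 4.0.16, a replicate block and each library left out. The tools were tested on simulated data. No 2 libraries of a genotype were copies (chi-square per degree of freedom 58.7 or more). Values for the text came from 6 of 6 libraries unless stated.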

Additional observations from a re-analysis of the deposited data

How the results depend on the processing

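The count of called members was 1 in all but 2 alternatives. It was 3 with library totals as the scaling and 2 with DESeq2. Leaving out each library in turn gave 1 to 1. The count of called transport genes, 1, became 3 with library totals, 3 with DESeq2, and 0 with edgeR, the replicate block and limma without trend, and 0 to 1 without each library. Over all genes, 296 calls (31.8% higher) became 2146 with library totals (93.4% higher), 1182 with DESeq2 and 49 without trend, and between 17 and 366 without each library. No alternative called a gene of the list of further carbonic anhydrases, in which ca5a alone was tested under most settings; car15 was not run under the alternatives. With library totals the signs of ca2 (0.13), ca10a (0.27) and ca5a (0.15) turned positive, as that scaling shifted all genes by 0.35. The change of cahz, 0.0023, was -0.0074 with DESeq2 and -0.072 to 0.12 without each library, below 0 in 3 of these (-0.041 without wild-type replicate 2, -0.072 without wild-type replicate 3 and -0.016 without mutant replicate 1). Without a single library the sign also turned for ca2 (0.053 without mutant replicate 1, range -0.40 to 0.053), ca4a (-0.10 without wild-type replicate 2, range -0.10 to 0.53) and ca10a (0.042 without wild-type replicate 1, range -0.18 to 0.042). None of these reversals involved a called gene. The cause was not tested. Same-numbered libraries deviated with correlations of 0.19, -0.14 and 0.23 over genes, and differently numbered ones with -0.34 to 0.17. No label says that the numbers pair fish, and correlations from 3 libraries per genotype cannot decide it. The replicate block left 1 member called and gave 289 calls in all. With it ca7 had a log2 change of -1.64 and an adjusted p of 0.00608. Depth limits ca8, which rests on 4 to 86 reads per library.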

Other observations

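The gene car15, which carries a name of the family but was in no list, was added after the table was seen. It was at 25.4, 15.1 and 14.9 in wild type and at 33.6, 23.0 and 11.0 in the mutants, on 13 to 36 reads per library. The genotypes overlapped (log2 change 0.19, SE 0.49, limma adjusted p = 0.863).

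Among the transporters, both zebrafish copies of the anion exchanger slc4a2 were measured, and their values went in opposite directions without passing the threshold. slc4a2b was at 93.6, 185 and 132 in wild type and at 59.7, 74.3 and 46.5 in the mutants (log2 change -1.14, SE 0.31, limma adjusted p = 0.105). slc4a2a was at 0.875, 9.27 and 6.89 in wild type and at 22.4, 15.7 and 16.9 in the mutants (log2 change 1.84, SE 0.72, limma adjusted p = 0.209). Its values rest on few reads, 1, 8 and 6 in wild type and 24, 15 and 20 in the mutants, and all wild-type values were below the filter value of 10. The neuronal anion exchanger slc4a3 was at 198 ± 9.85 and 133 ± 23.8 (log2 change -0.59, limma adjusted p = 0.140), and the sodium/proton exchanger slc9a8 at 999 ± 79.6 and 753 ± 41.2 (log2 change -0.40, limma adjusted p = 0.0885). These 4 were chosen after their values were seen, and the difference between the copies was not tested.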
